A study of Homo sapiens with 6 samples.

Results

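The alpha-arrestins are a small family of cytosolic adaptor proteins built on the arrestin fold, and 5 of their genes, TXNIP, ARRDC1, ARRDC2, ARRDC3 and ARRDC4, were examined here out of 58735 genes in the table. They were taken by gene symbol. The set was selected on the differences in FPKM between GPR56 knockout and wild-type cells in this same table, which were already known, so those differences are given as a description of the 5 genes, with no p-value. ARRDC5, the remaining family member, had 0 reads in all 6 libraries, where 3 reads would have amounted to 0.106 to 0.110 FPKM.

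Most alpha-arrestins carry short PPxY motifs that hold ubiquitin ligases of the NEDD4 family, and through them they mark receptors, channels and transporters for removal from the cell surface. TXNIP is the best known. It binds thioredoxin and blocks its reducing activity, and it slows glucose entry by promoting the uptake of the glucose transporter GLUT1 into the cell. When sugar is plentiful the glucose-sensing factor MondoA, bound to its partner MLX, switches on TXNIP and ARRDC4, and FOXO factors and the glucocorticoid receptor also act on members of the family.

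Messenger RNA was measured in HT1080, an established human fibrosarcoma line, in 3 libraries of GPR56 knockout (KO) cells made with CRISPR-Cas9 and 3 libraries of wild-type (WT) cells. GPR56, an adhesion G protein-coupled receptor, is the product of ADGRG1. The sample descriptions name DMSO for both genotypes without a dose or a time, and both were grown in medium with fetal bovine serum. The labels do not give the number of knockout clones, nor the cultures behind the 3 samples of each genotype. Errors and p-values therefore measure only how far these samples scatter, which may be technical scatter, and genotype cannot be told apart from other differences between the cell populations.

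Levels are in FPKM, reads scaled to gene length and library size, as the authors deposited them. The libraries held 16955111 to 17276269 recovered reads in KO and 16410352 to 16461752 in WT. ADGRG1 was at 2.68, 2.54 and 2.58 FPKM in KO and at 6.61, 6.07 and 6.87 FPKM in WT, so its mRNA was lower in the KO libraries but still present. Of the mesenchymal markers, VIM, FN1, CD44, LGALS1, S100A4 and SPARC were expressed in both genotypes, COL1A1 was at 0.996 FPKM in KO and 0.235 FPKM in WT, and COL1A2 had 0 reads in KO and 9 in WT. The summed level of 5 epithelial markers reached at most 0.0231 FPKM in KO and 0.0235 FPKM in WT. Sums reached 0.41 FPKM in KO and 0.07 FPKM in WT for 4 blood cell markers, and 1.57 FPKM in KO and 0.38 FPKM in WT for 3 endothelial markers, of which PECAM1 was highest. The part of these other cell markers in the results was not tested. In bulk samples fewer cells that express a gene and less of its RNA per cell cannot be told apart.

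TXNIP showed the widest separation of the genotypes in the family. Its level was 5.43, 4.72 and 5.68 FPKM in KO cells, against 1.14, 0.994 and 1.01 FPKM in WT cells, from 294 to 342 reads per KO library and 60 to 70 reads per WT library. Every KO library lay far above every WT library. The means were 5.28 ± 0.50 FPKM in KO and 1.05 ± 0.08 FPKM in WT (SD, n = 3 each), and the KO mean was 5.03 times the WT mean. Counting error alone allows a ratio of 4.30 to 5.90 (exact 95% interval from 974 KO and 191 WT reads). On the log2(FPKM + 1) scale, which understates differences of low genes, the KO minus WT difference was 1.61 (SE 0.08). That placed TXNIP 43rd from the top among the 12000 genes with a mean of at least 1 FPKM, whose median difference was -0.01. The gene lies on the minus strand of chromosome 1 (ENSG00000265972, positions 145992435 to 145996600, GRCh38), and none of its exonic bases overlap another annotated gene.

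ARRDC4, the relative of TXNIP that shares its regulation by MondoA and likewise lowers glucose uptake, was the scarcest of the 5 and was higher in KO as well. It was at 0.415, 0.457 and 0.325 FPKM in KO and at 0.145, 0.133 and 0.103 FPKM in WT. These values rest on 22 to 32 reads per KO library and 7 to 10 reads per WT library. The genotypes did not overlap, and the ratio of 83 KO reads to 26 WT reads, after scaling for library size, was 3.14, with an exact 95% interval of 2.003 to 5.091 that covers counting error only. The mean of 0.263 FPKM over the 6 libraries put the gene under the expression filter, and its difference of 0.31 (SE 0.06) on the log2(FPKM + 1) scale is small because the pseudocount exceeds its level. ARRDC4 lies on the plus strand of chromosome 15 (positions 97960698 to 97973838).

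**Figure D1:**
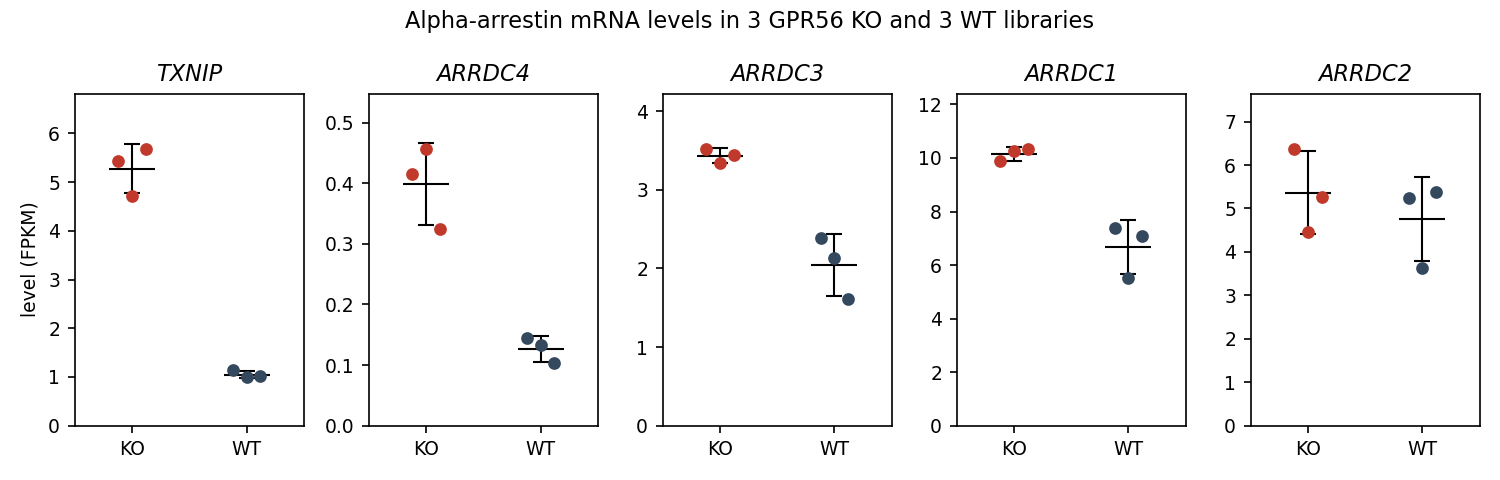
FPKM of each alpha-arrestin gene in each library (points), with the mean (wide bar) and SD (error bar) of 3 KO and 3 WT libraries; each panel has its own vertical axis, which starts at 0. The KO and WT points are apart for TXNIP, ARRDC4, ARRDC3 and ARRDC1 and overlap for ARRDC2.

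The bases before the starts of TXNIP and ARRDC4 are shown because these are the family's known glucose-responsive promoters and the genes with the highest KO to WT ratios. Each sequence is the 250 bases that precede the outermost RefSeq start in GRCh38.p14, on the gene's own strand. Those starts lie inside the gene limits given above (145996600 for TXNIP, 97960698 for ARRDC4), so the last bases of each stretch fall within those limits. Positions are counted from the RefSeq start. Capitals mark the 5 motifs that were searched on both strands. These were a pair of CNCGNG with any 5 bases between, a loose form of the spaced E-box pair that MondoA binds, CACGTG, the full E-box, CCAAT, the site of nuclear factor Y, GTAAACA, a FOXO site, and TATATA.
TXNIP, chr1:145996580-145996829, minus strand: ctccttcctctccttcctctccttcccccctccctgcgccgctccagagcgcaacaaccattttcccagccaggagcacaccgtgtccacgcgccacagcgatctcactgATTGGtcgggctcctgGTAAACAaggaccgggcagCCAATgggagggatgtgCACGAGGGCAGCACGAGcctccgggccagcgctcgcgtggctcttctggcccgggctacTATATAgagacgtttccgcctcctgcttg
ARRDC4, chr15:97960453-97960702, plus strand: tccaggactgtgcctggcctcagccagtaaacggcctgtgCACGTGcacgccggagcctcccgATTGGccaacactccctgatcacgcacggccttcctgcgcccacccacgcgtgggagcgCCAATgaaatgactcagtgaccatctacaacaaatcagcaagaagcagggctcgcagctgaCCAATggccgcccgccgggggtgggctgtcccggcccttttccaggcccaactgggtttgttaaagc

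The TXNIP stretch held the spaced E-box pair at positions -88 to -72 from the start, CCAAT on either strand, 1 FOXO site at -124 to -118 and a TATATA at -29 to -24. The ARRDC4 stretch held a full E-box at -210 to -205 and 3 CCAAT matches, and no match to the spaced pair, the FOXO site or TATATA. Among 35116 RefSeq start sites of all genes, the same length of sequence held the spaced pair in 1.87%, CACGTG in 6.34%, CCAAT in 32.0%, GTAAACA in 2.98% and TATATA in 3.73%. The 5 members had 8 start sites in that table. The spaced pair was also matched at the first start of ARRDC2, GTAAACA at the second start of ARRDC3, and CCAAT at 1 start each of ARRDC1, ARRDC2 and ARRDC3. The second start of TXNIP matched no motif. The spaced form was chosen after the TXNIP sequence had been read, and a match shows only that the letters are there.

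ARRDC3, an adaptor that directs integrin beta4 to degradation, was at 3.52, 3.33 and 3.44 FPKM in KO and 2.38, 2.13 and 1.61 FPKM in WT. The KO libraries lay close together above all WT libraries, among which the third was lowest. The means were 3.43 ± 0.09 FPKM in KO and 2.04 ± 0.40 FPKM in WT (SD, n = 3 each), a ratio of 1.68 and a difference of 0.55 (SE 0.10). Its exons share 145 bases, 2.94% of the total, with ARRDC3-AS1 on the opposite strand, which was at 0.138 ± 0.061 FPKM in KO and 0.190 ± 0.023 FPKM in WT. The strand setting of the counting is not given in the sources used here, so reads in such stretches cannot be assigned with certainty. The gene is on the minus strand of chromosome 5 (positions 91368724 to 91383359).

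ARRDC1, which recruits TSG101 to the plasma membrane and buds small vesicles from it, was the most abundant member in both genotypes. It was at 9.87, 10.3 and 10.3 FPKM in KO and 7.38, 5.50 and 7.10 FPKM in WT. The genotypes did not overlap, and WT 2 stood below the other WT libraries. The means were 10.2 ± 0.3 FPKM in KO and 6.66 ± 1.01 FPKM in WT (SD, n = 3 each), a ratio of 1.53 and a difference of 0.55 (SE 0.10). Its exons share 183 bases, 4.79% of the total, with AL590627.2 on the same strand, which was listed at 0 FPKM, and 29 bases with ARRDC1-AS1, an antisense RNA that was at 12.6 ± 0.4 FPKM in KO and 11.8 ± 1.4 FPKM in WT. That RNA did not pass the test (log2 difference 0.10, limma adjusted p = 0.411), and its sign turned after removal of GC and length trends (-0.13, adjusted p = 0.0460). ARRDC1 lies on the plus strand of chromosome 9 (positions 137605654 to 137615360).

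ARRDC2, a member known to be induced by glucocorticoids, overlapped between the genotypes. It was at 6.37, 4.46 and 5.26 FPKM in KO and 5.24, 3.64 and 5.38 FPKM in WT, where WT 2 was again lowest. The means of 5.37 ± 0.96 FPKM in KO and 4.75 ± 0.97 FPKM in WT (SD, n = 3 each) differed by 0.15 (SE 0.15), no more than the spread between libraries. Without WT 2 the difference was 0.00. Its exons share 442 bases, 9.53% of the total, with AC020904.3 on the opposite strand, which was listed at 0 FPKM. ARRDC2 lies on the plus strand of chromosome 19 (positions 18001132 to 18014102).

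**Figure D2:**
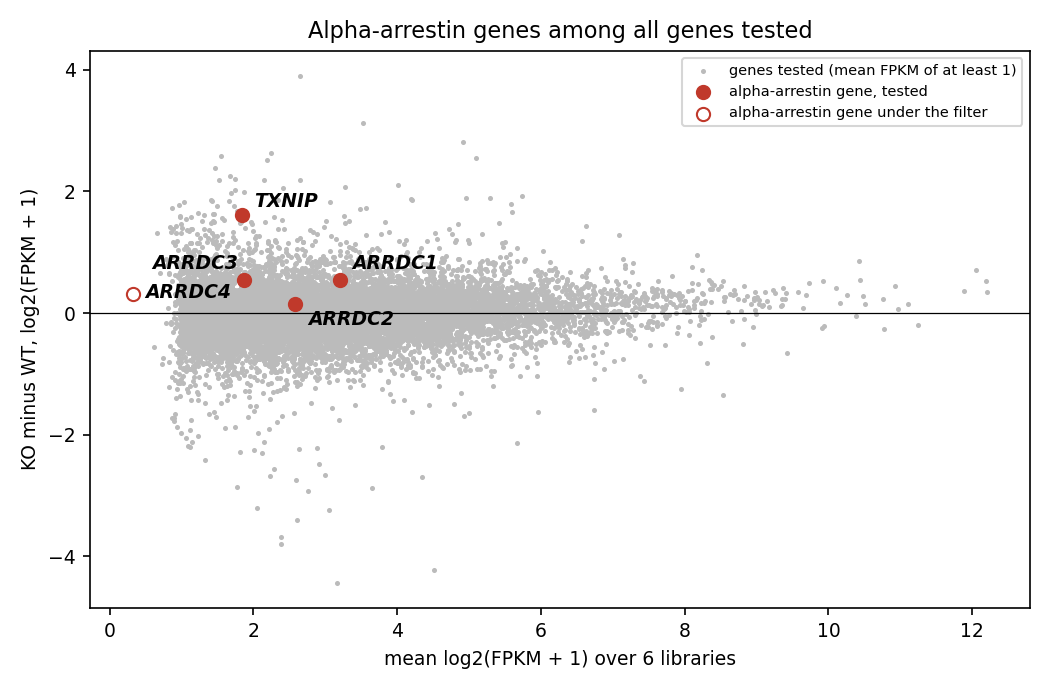
KO minus WT difference against mean level, both on the log2(FPKM + 1) scale, for the 12000 genes tested (grey) and the alpha-arrestin genes (red; the open circle is under the expression filter). TXNIP, at 1.61, stands near the upper edge of genes of its level, ARRDC1 and ARRDC3 are at 0.55, and ARRDC2 at 0.15 is within the main cloud.

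Of the 4 members that passed the expression filter, 3 were past the limma threshold in the fit of all genes, all higher in KO, beside 43.4% of all genes tested in either direction, 21.0% higher and 22.4% lower. The share in either direction was 43.6% after removal of GC and length trends and 46.3% by limma-voom on recovered reads. In the same 3 members every KO library was above every WT library, which held for 26.4% of the genes tested, while 28.3% had every KO library lower and 54.7% separated in either direction. ARRDC4 separated in the same way, as did 25.8% of the 3213 genes under the filter with a mean of at least 10 reads. Nothing is read from these counts, since the members were selected with this contrast known.

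The ranking of levels in the family differed between the genotypes through TXNIP. In KO cells ARRDC1 stood first, ARRDC2 and TXNIP followed with overlapping ranges of 4.46 to 6.37 FPKM and 4.72 to 5.68 FPKM, and ARRDC3 and ARRDC4 came after them without overlap. In WT cells the order was ARRDC1, ARRDC2, ARRDC3, TXNIP and ARRDC4, with no overlap between neighbours. TXNIP made up 21.4 ± 1.2% of the summed FPKM of the 5 genes in KO and 7.23 ± 0.71% in WT (SD, n = 3 each). The sum itself was 24.6 ± 1.2 FPKM in KO and 14.6 ± 2.0 FPKM in WT.

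The libraries carried a trend with GC content that ran with genotype, and the members differ in GC content. Across genes, which are not independent replicates, GC content and how far a gene in a library departs from its own average were correlated with a Spearman rho of 0.47, 0.45 and 0.23 in KO and -0.40, -0.63 and -0.02 in WT. Transcripts of ARRDC1 and ARRDC2 have 63.1% and 62.3% GC, and those of ARRDC3, ARRDC4 and TXNIP have 40.7%, 43.4% and 45.2%. With the trends of GC and length removed, the difference was 0.33 for ARRDC1, -0.05 for ARRDC2, 0.79 for ARRDC3 and 1.63 for TXNIP, and 0.35 for ARRDC4 in the unfiltered fit. WT 2, the library with the strongest trend, was also the one in which ARRDC1 and ARRDC2 were lowest. The part of the trend in their values was not tested beyond this correction.

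**Figure D3:**
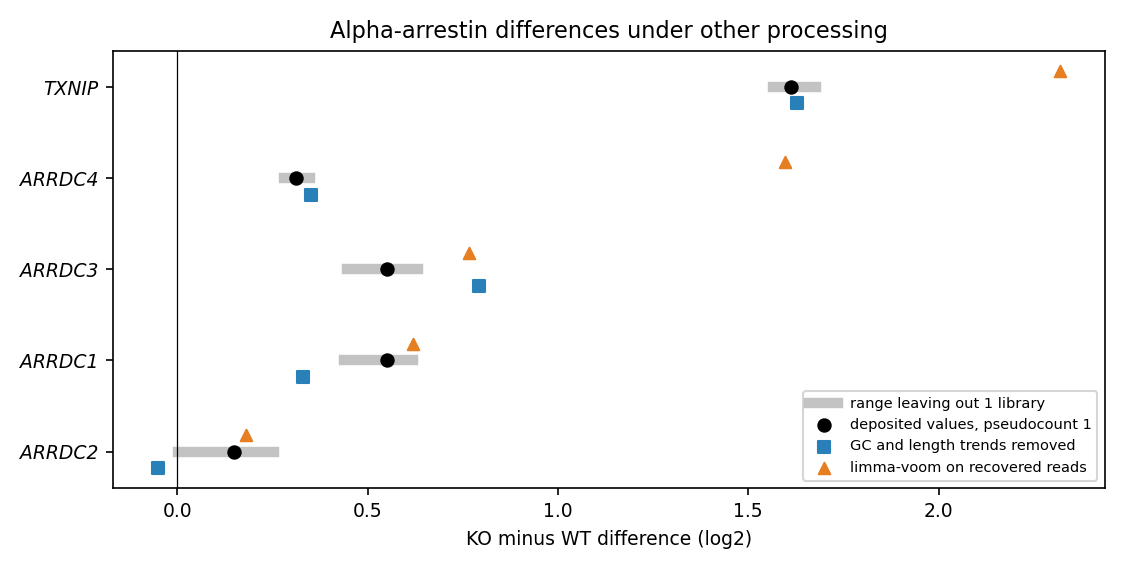
KO minus WT difference (log2) of each alpha-arrestin gene as deposited with a pseudocount of 1 (circles), with GC and length trends removed (squares), by limma-voom on recovered reads (triangles), and over the 6 fits that leave out 1 library (grey bars). TXNIP remains highest at 1.57 to 1.68 in the grey bar, and ARRDC2 is the gene whose square falls below 0.

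On the deposited values, none of the nearest 2 tested genes on each side of TXNIP or ARRDC1 passed the test. ARRDC1-AS1, beside ARRDC1, passed as lower once GC and length trends were removed (limma adjusted p = 0.0460). Of the nearest 2 tested genes on each side of each member, 20 in all, 3 were higher, 4 lower and 13 did not pass, beside 43.4% called among all genes tested. Around TXNIP, the start of POLR3GL, a subunit of RNA polymerase III, lies at -27.7 kb, on the side of lower coordinates. POLR3GL was at 2.09 ± 0.41 FPKM in KO and 1.59 ± 0.05 FPKM in WT (log2 difference 0.24, limma adjusted p = 0.120). Its KO libraries all lay above its WT libraries (lowest KO 1.65 FPKM, highest WT 1.64 FPKM), as in 26.4% of the genes tested. LIX1L was at 14.1 ± 0.6 FPKM in KO and 14.5 ± 0.8 FPKM in WT. On chromosome 5, LYSMD3 and POLR3G, whose starts lie at -853.1 and -897 kb from that of ARRDC3, fell, POLR3G to 5.22 ± 0.15 FPKM in KO against 10.6 ± 1.7 FPKM in WT (adjusted p = 0.000850). LYSMD3 was no longer called once GC and length trends were removed (adjusted p = 0.0612). On chromosome 15, IGF1R, the receptor of insulin-like growth factors, rose to 8.28 ± 0.15 FPKM in KO against 4.66 ± 0.29 FPKM in WT, while the nuclear receptor gene NR2F2 fell to 10.9 ± 0.7 FPKM in KO against 19.6 ± 0.3 FPKM in WT. The noncoding RNA gene AC015574.1 had 0 reads in KO and 189 in WT (log2 difference -1.87, limma adjusted p = 0.000258). AC015574.1 passed the filter only through the WT libraries, and it is counted among the 4 lower. The nearest of these starts lies 687.8 kb from that of ARRDC4. Beside ARRDC2, MAST3 rose to 2.21 ± 0.18 FPKM in KO against 1.31 ± 0.20 FPKM in WT (adjusted p = 0.00712).

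**Figure D4:**
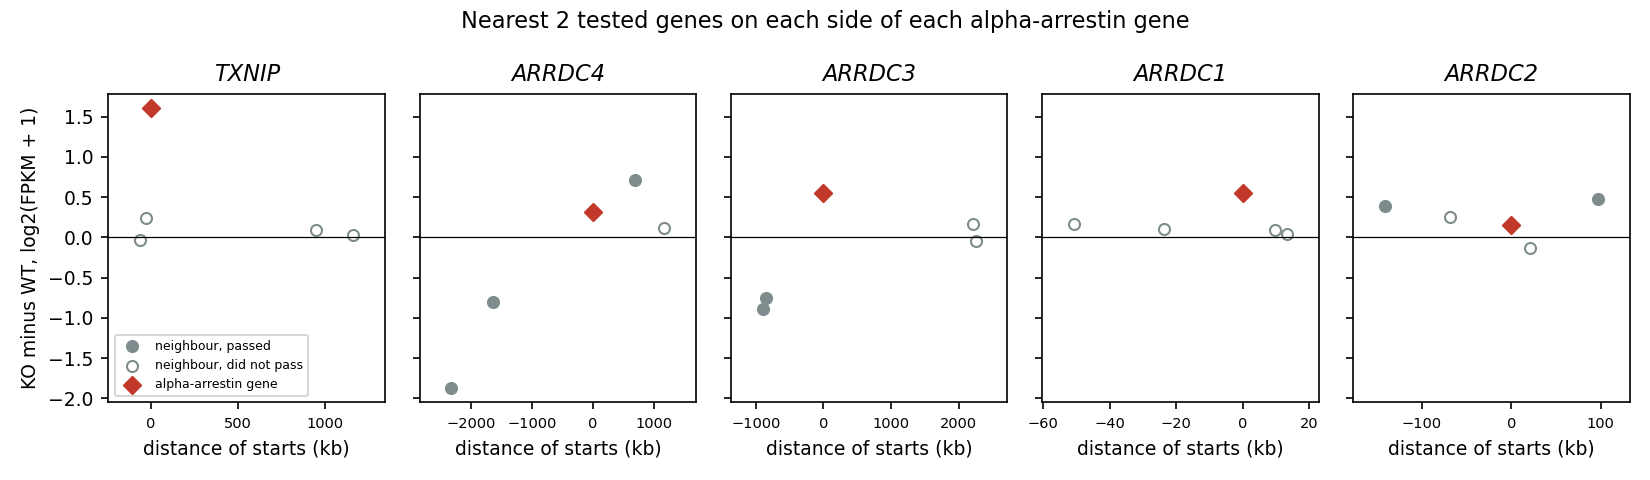
KO minus WT difference on the log2(FPKM + 1) scale of each alpha-arrestin gene (diamond, at 0 kb) and of the nearest 2 tested genes on each side, against the distance between gene starts in kb; filled circles passed the limma threshold. The 4 neighbours of TXNIP lie between -0.04 and 0.24, against 1.61 for TXNIP.

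The genes whose 6-library profile was most like that of TXNIP were found by the root mean square distance between centred log2(FPKM + 1) profiles, over 6628 protein-coding genes with a mean of at least 5 FPKM. They were HTRA1, a secreted protease (distance 0.08), BTG2 (0.09), SH2D2A (0.09), FDXR, a mitochondrial reductase (0.09), and DDIT4, an inhibitor of the growth kinase mTORC1 (0.12). HTRA1 was at 70.5 ± 5.8 FPKM in KO and 24.5 ± 1.4 FPKM in WT. DDIT4 was at 47.1 ± 2.8 FPKM in KO and 16.4 ± 1.4 FPKM in WT. All 5 are likewise higher in the KO libraries, and that difference is part of the likeness over 6 libraries. The match depends on the pseudocount and the floor of 5 FPKM. TXNIP, with a mean of 3.16 FPKM, has its difference understated on this scale more than the genes searched. The 5 genes had KO to WT ratios of 2.88 to 3.69, against 5.03 for TXNIP.

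Around the family, 11 lists of partner and pathway genes were examined, and 111 of their genes passed the expression filter. Of these, 42 rose, 26 fell and 43 did not pass (limma, adjusted over all 12000 genes). Of all genes tested, 43.4% were called, 21.0% as higher and 22.4% as lower, and these shares stand beside the counts of each list below.

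The relatives with an arrestin fold included the beta-arrestins, which carry activated G protein-coupled receptors into the cell. Of 5 tested genes, 3 rose, 2 did not pass and 0 fell, with a median log2 difference of 0.23. ARRB1 rose to 4.51 ± 0.20 FPKM in KO against 3.21 ± 0.22 FPKM in WT (adjusted p = 0.00419), and ARRB2 to 6.26 ± 0.07 FPKM in KO against 4.66 ± 0.22 FPKM in WT (adjusted p = 0.00301). VPS26C, a subunit of the endosomal retriever complex, rose by a ratio of 1.19 (adjusted p = 0.0226), a call that ended without KO 1, KO 2, KO 3 or WT 1 (adjusted p of 0.0516 to 0.0957). The visual arrestin gene SAG had 0 reads in every library.

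Among the NEDD4-family ligases and their adaptors, to which the PPxY motifs bind, 2 of 9 tested genes rose, 5 fell and 2 did not pass (median -0.26). After the GC and length correction the split was 3 higher and 4 lower, with a median of -0.00, and by limma-voom it was 2 higher and 6 lower. SMURF2, a ligase known for the turnover of TGF-beta receptors, fell to 4.66 ± 0.33 FPKM in KO against 10.7 ± 0.2 FPKM in WT (adjusted p = 5.46e-05). NEDD4 fell to 2.77 ± 0.27 FPKM in KO against 4.79 ± 0.35 FPKM in WT (adjusted p = 0.00123), with a log2 difference of -0.62 that was -0.22 after the correction. NEDD4L fell to 10.9 ± 0.7 FPKM in KO against 14.0 ± 0.1 FPKM in WT. SMURF1 rose by a ratio of 1.29, and the membrane adaptor gene NDFIP2 rose to 17.7 ± 3.1 FPKM in KO against 10.5 ± 1.2 FPKM in WT (adjusted p = 0.00492). ITCH, the ligase that ubiquitinates TXNIP, was at 7.51 ± 0.05 FPKM in KO and 9.06 ± 1.03 FPKM in WT and did not pass (adjusted p = 0.0506). It passed as lower with a pseudocount of 0.1 (adjusted p = 0.0498), the filter at 5 FPKM (0.0479), limma-voom (0.0313) and without WT 3 (0.0214), and its difference was -0.00 with GC and length trends removed (adjusted p = 0.949).

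Of 23 tested ESCRT and ALIX genes, which sort ubiquitinated cargo into endosomal vesicles, 8 rose, 3 fell and 12 did not pass (median -0.00; 10 higher and 5 lower after the correction, median 0.11). TSG101, the partner of ARRDC1 in vesicle budding, rose to 20.7 ± 0.9 FPKM in KO against 16.3 ± 1.3 FPKM in WT (adjusted p = 0.00994). MVB12A, another subunit of its complex, rose to 22.9 ± 0.4 FPKM in KO against 12.7 ± 1.6 FPKM in WT. VPS37A fell to 3.01 ± 0.38 FPKM in KO against 4.90 ± 0.43 FPKM in WT. PDCD6IP, which encodes the ARRDC3 partner ALIX, was at 20.7 ± 1.9 FPKM in KO and 20.6 ± 2.2 FPKM in WT (adjusted p = 0.938) and passed as higher after the GC and length correction (log2 difference 0.25, adjusted p = 0.0111).

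The transcripts of MondoA and its partner did not pass the test. MLXIP, the gene of MondoA, was at 7.81 ± 0.26 FPKM in KO and 7.65 ± 0.47 FPKM in WT (log2 difference 0.03, adjusted p = 0.758), and MLX at 13.7 ± 0.2 FPKM in KO and 13.2 ± 0.5 FPKM in WT (adjusted p = 0.551). MLXIPL, the gene of the liver factor ChREBP, had 0 reads. In the network of MondoA and MYC, 4 of 10 tested genes rose, 3 fell and 3 did not pass (median 0.04; 3 higher and 4 lower after the correction, median -0.07). MYC, which drives growth and glucose use, fell to 9.42 ± 0.01 FPKM in KO against 27.1 ± 2.3 FPKM in WT (log2 difference -1.43, adjusted p = 2.49e-05). MXD4 and MNT, which bind E-boxes with MAX in place of MYC, rose, MXD4 to 7.70 ± 0.34 FPKM in KO against 2.34 ± 0.21 FPKM in WT (adjusted p = 2.90e-05). Of the rest of the network, MXI1 and MXD3 also rose, and the MXD3 call ended after the correction (adjusted p = 0.0664). MGA fell to 2.23 ± 0.10 FPKM in KO against 3.66 ± 0.22 FPKM in WT (adjusted p = 0.00129), and MXD1 fell as well (adjusted p = 0.00443).

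Other known targets of MondoA or ChREBP were divided. Of 9 tested genes, 5 did not pass, 2 rose and 2 fell (median 0.07), with 1 higher and 2 lower under quantile normalization. SCD, a desaturase, rose by a ratio of 1.29 and the elongase gene ELOVL6 fell to 5.80 ± 0.39 FPKM in KO against 8.26 ± 0.66 FPKM in WT. KLF10 fell to 13.7 ± 1.7 FPKM in KO against 18.4 ± 2.3 FPKM in WT (adjusted p = 0.0248), a call that ended without KO 1, KO 2, WT 1 or WT 2 (adjusted p of 0.0627 to 0.0825). HK2, the hexokinase gene, was at 20.3 ± 0.8 FPKM in KO and 19.6 ± 1.6 FPKM in WT (adjusted p = 0.626).

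Among 11 other transcription factors known to act on TXNIP, 4 rose, 4 fell and 3 did not pass (median -0.05; 2 higher and 4 lower after the correction). VDR, the receptor of vitamin D, which is known to induce TXNIP, rose to 8.23 ± 0.67 FPKM in KO against 6.11 ± 0.12 FPKM in WT (adjusted p = 0.00486), and FOXO1 to 3.34 ± 0.41 FPKM in KO against 2.38 ± 0.12 FPKM in WT (adjusted p = 0.0143; 0.0557 without WT 1). NFYB, a subunit of the factor that binds CCAAT, fell to 2.47 ± 0.38 FPKM in KO against 4.31 ± 0.23 FPKM in WT. NR3C1, the glucocorticoid receptor gene, was at 10.8 ± 0.6 FPKM in KO and 12.8 ± 0.8 FPKM in WT (adjusted p = 0.0372). This last call ended with GC and length trends removed (log2 difference -0.03, adjusted p = 0.645) and without KO 1, KO 2, WT 1 or WT 2 (adjusted p of 0.0909 to 0.131).

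FOXO targets, which are induced when insulin and PI3K signalling is low, had 6 higher, 1 lower and 3 not passing of 10 tested, with a median of 0.46 beside -0.01 for all genes tested (6 higher and 2 lower after the correction, median 0.50). PIK3IP1, an inhibitor of PI3K, rose to 2.80 ± 0.39 FPKM in KO against 0.272 ± 0.052 FPKM in WT, a ratio of 10.3 (adjusted p = 7.72e-05). That gene passed the expression filter only through the KO libraries, with 544 reads in KO and 52 in WT, and it is counted in the split and the median. SESN1, a stress-induced sestrin, rose to 12.2 ± 0.8 FPKM in KO against 4.46 ± 0.67 FPKM in WT. CCNG2 rose to 4.41 ± 0.10 FPKM in KO against 2.16 ± 0.15 FPKM in WT and IRS2, an insulin receptor substrate, to 11.8 ± 0.8 FPKM in KO against 6.73 ± 0.44 FPKM in WT. CITED2 was the member that fell, and PDK4 had 0 reads in every library.

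Glucocorticoid receptor targets had 3 higher, 3 lower and 2 not passing of 8 tested (median 0.09). ERRFI1, an inhibitor of the EGF receptor, rose to 160.9 ± 7.4 FPKM in KO against 59.3 ± 5.4 FPKM in WT, and the clock gene PER1 to 3.85 ± 0.22 FPKM in KO against 1.62 ± 0.03 FPKM in WT. FKBP5 fell to 3.78 ± 0.24 FPKM in KO against 5.47 ± 0.11 FPKM in WT (adjusted p = 0.00191).

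The thioredoxin system, on which TXNIP acts, had 3 higher, 3 lower and 7 not passing of 13 tested (median -0.20; 3 higher and 5 lower after the correction and under quantile normalization, 3 and 6 by limma-voom). TXNRD1, the cytosolic thioredoxin reductase, fell to 84.7 ± 3.5 FPKM in KO against 160.8 ± 8.3 FPKM in WT (adjusted p = 0.000114). TXN, thioredoxin itself, fell to 249.4 ± 17.2 FPKM in KO against 353.1 ± 50.9 FPKM in WT (adjusted p = 0.0105), a call that ended with GC and length trends removed (log2 difference -0.18, adjusted p = 0.109). TXN2, the mitochondrial form, rose to 47.3 ± 1.4 FPKM in KO against 36.7 ± 1.3 FPKM in WT. MAP3K5, the kinase ASK1 that thioredoxin holds inactive, fell to 2.45 ± 0.18 FPKM in KO against 3.65 ± 0.10 FPKM in WT (adjusted p = 0.00289).

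Of 6 tested glucose transporter genes 5 rose and 1 fell (median 0.41; 4 and 1 after the correction, median 0.31), and 7 lay under the filter. SLC2A1, the gene of GLUT1 and a cargo of TXNIP, rose to 85.6 ± 2.4 FPKM in KO against 57.7 ± 4.1 FPKM in WT (log2 difference 0.56, adjusted p = 0.000858). SLC2A6 was at 2.60 ± 0.18 FPKM in KO and 1.95 ± 0.21 FPKM in WT (adjusted p = 0.0299), a call that ended with GC and length trends removed (adjusted p = 0.734). SLC2A12 rose to 2.08 ± 0.39 FPKM in KO against 0.477 ± 0.101 FPKM in WT, and it passed the filter only through the KO libraries. SLC2A3, the gene of GLUT3, was at 11.9 ± 1.2 FPKM in KO and 9.51 ± 0.43 FPKM in WT (adjusted p = 0.0243), a call that ended without KO 2, KO 3 or WT 1 (adjusted p of 0.0700 to 0.0904). SLC2A13, a transporter of myo-inositol, fell to 0.785 ± 0.190 FPKM in KO against 1.79 ± 0.16 FPKM in WT, and it passed the filter only through the WT libraries. Both SLC2A12 and SLC2A13 are counted in the split and the median of the transporters.

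Other cargoes and clients of alpha-arrestins had 2 higher, 1 lower and 4 not passing of 7 tested (median -0.01), with 2 higher and 2 lower by limma-voom. F2R, the thrombin receptor that ARRDC3 helps sort in lysosomal degradation, rose to 13.7 ± 0.7 FPKM in KO against 5.90 ± 0.42 FPKM in WT (adjusted p = 6.57e-05). DDIT4, whose product forms a complex with TXNIP, rose to the level given above (adjusted p = 3.18e-05). NLRP3, the inflammasome sensor that TXNIP is known to bind, fell to 2.39 ± 0.34 FPKM in KO against 4.88 ± 0.47 FPKM in WT (adjusted p = 0.000850). ITGB4, a cargo of ARRDC3, lay under the filter with 238 reads in the KO libraries and 34 in the WT libraries.

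**Figure D5:**
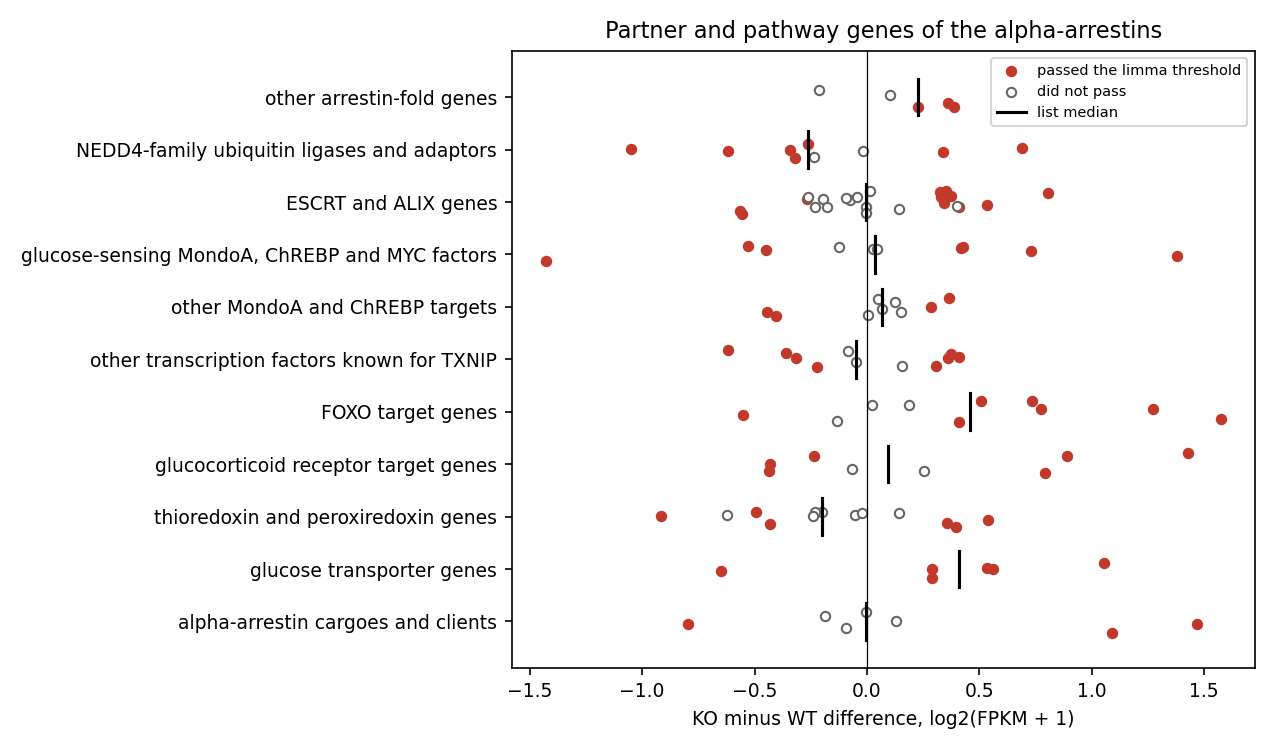
KO minus WT difference on the log2(FPKM + 1) scale of every tested gene of the 11 lists; filled points passed the limma threshold, open points did not, and the black line is the list median. The medians of the FOXO targets (0.46) and the glucose transporters (0.41) lie farthest to the right, and that of the NEDD4-family ligases (-0.26) farthest to the left.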

How the data were processed

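RNA was purified with a column kit and made into libraries with a SMARTER mRNA-Seq kit, per the labels' protocols. The authors deposited 1 table of FPKM values for 58735 genes in 6 libraries, with gene lengths. The aligner and counting tool are not given here. Mouse builds stand in the submitters' processing notes, but the identifiers, starts and ends of 58735 genes equal human GENCODE release 29, so positions are on GRCh38.

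FPKM times length stepped in whole reads (100% of values within 0.02 of a whole read), which gave reads per library; intervals from reads cover counting error only. FPKM are not counts, so limma 3.58.1 in R 4.3.3 (lmFit, eBayes with trend) was fitted to log2(FPKM + 1) for the 12000 genes averaging 1 FPKM or more, with genotype as the only term. Tests were two-sided, with Benjamini-Hochberg adjustment over all 12000 genes and a threshold of 0.05.

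The members, gene lists and tests were chosen with earlier results of these data known. Genes named were the members, ADGRG1, a fixed set of partners, up to 4 genes per list with the smallest adjusted p past the threshold, the nearest 2 tested genes on each side of each member, antisense RNAs named after members, and the 5 genes most like TXNIP. HK2, CITED2, PDK4, SAG, SLC2A6, MLXIPL, ITGB4, MXD1, MXD3 and MXI1 were added after their values were seen. Some genes are not reported here. GC content came from GENCODE transcripts, and its lowess trend and that of length were removed per library as an alternative, beside other pseudocounts, filters, quantile normalization, limma-voom, the replicate block and leaving out each library.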

Additional observations from a re-analysis of the deposited data

How the results depend on the processing

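The differences of the 5 alpha-arrestin genes kept their sign under the alternatives run for each, except that of ARRDC2, which was -0.05 with GC and length trends removed. These were 14 for ARRDC1 and ARRDC2. TXNIP and ARRDC3 had no value with the filter at 5 FPKM, and ARRDC4, taken from unfiltered genes throughout, had none for either filter setting. Values moved by more than the spread between libraries as follows. The TXNIP difference was 2.22 with a pseudocount of 0.1, 1.90 with 0.5 and 2.32 by limma-voom on recovered reads. That of ARRDC4 was 1.13, 0.52 and 1.60 under the same settings, and that of ARRDC3 was 0.74 with a pseudocount of 0.1, 0.77 by limma-voom and 0.79 after the GC and length correction. ARRDC1 was at 0.33 after that correction. A smaller pseudocount raises the log2 difference of a low gene by construction. Leaving out 1 library gave 1.57 to 1.68 for TXNIP, 0.28 to 0.35 for ARRDC4, 0.45 to 0.63 for ARRDC3, 0.44 to 0.62 for ARRDC1 and 0.00 to 0.25 for ARRDC2.

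Over all genes 5207 were called, and 3789 to 5372 when 1 library was left out. A filter at a mean of 5 FPKM, with fewer genes tested, gave 3203 calls, 1639 higher and 1564 lower, and 45 calls in place of 68 among the lists. The antisense RNA ARRDC1-AS1 turned to -0.13 after the GC and length correction. Same-numbered KO and WT libraries did not deviate together (correlations -0.07, -0.18 and -0.35), and between libraries of different numbers the correlations ran from -0.21 to 0.37. Deviations from a mean of 3 libraries depend on each other, so these values do not exclude a pairing. The fit with the replicate block gave 3866 calls and 56 among the lists. It ended 4 calls among the genes chosen for naming, including VPS26C (limma adjusted p = 0.0644), KLF10 (0.0742) and NR3C1 (0.115). With no filter 4 calls among those genes ended, including KLF10 (limma adjusted p = 0.0752), NR3C1 (0.0691) and SLC2A3 (0.0593). At this depth ARRDC4 rested on 7 to 32 reads per library.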
